A study of Mus musculus with 6 samples.

Results

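The ephrin ligands and Eph receptors were examined here as 9 genes, the ligands *Efna1*, *Efna5* and *Efnb2*, the EphA receptors *Epha3*, *Epha4* and *Epha7*, and the EphB receptors *Ephb2*, *Ephb3* and *Ephb4*. They were chosen by symbol, through their Ensembl identifiers, from the 28777 genes of the count table, and all 9 were among the 28157 genes tested. The counts came from bulk RNA-Seq of the mouse cardiac outflow tract (OFT) at embryonic stage E13.5, the vessel through which blood leaves the embryonic heart. Of the 6 libraries, 3 were labelled wildtype (*Notch1*+/+; *Nos3*+/+) and 3 were labelled mutant, by their label heterozygous for a *Notch1* knockout and null for *Nos3* (*Notch1*+/-; *Nos3*-/-). The strains were kept in a C57/BL6J background, the matings were of *Notch1*+/-; *Nos3*+/- males with *Nos3*+/- females, and wildtype littermates served as controls. Both knockouts are carried by all cells of the embryo, and each library pooled 3 OFTs, cut below the conal cushions, so the spread between embryos within a pool was not measured.

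Eph receptors are tyrosine kinases that bind ephrins on the surface of a neighbouring cell, so signaling takes place where cells touch. Ephrin-A ligands are held in the membrane by a lipid anchor, while ephrin-B ligands span it and signal into their own cell as well, which is called reverse signaling, in contrast to forward signaling through the receptor. In the developing circulation ephrin-B2 marks arterial and EphB4 venous endothelium, arterial *Efnb2* lies downstream of Notch signaling, and EphA3 is known from the formation of the endocardial cushions.

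No ephrin or Eph receptor of the 9 was called between the labels (0 of 9 at an adjusted p of at most 0.05, quasi-likelihood test of edgeR, p-values adjusted over all genes by the method of Benjamini and Hochberg, against 0.0213% of all genes tested). The estimates furthest from 0 were those of *Epha3* and *Epha7*, higher in the libraries labelled mutant by log2 fold changes of 0.49 ± 0.17 (SE) and 0.39 ± 0.22 (SE), n = 3 libraries a group. In 1 wildtype library, replicate 1, *Epha3* lay within the range of the mutant libraries and *Epha7* above it. *Ephb4*, the most highly expressed of the 9 per length, was the only member whose groups did not overlap, at a fold of 1.09. Groups apart in this direction were found for 10.7% of all genes tested.

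Depth was 34729103 to 44387490 counts per library, and no 2 libraries agreed within sampling noise. The targeted genes were examined first. *Notch1* was 82.0 ± 7.09 CPM (SD, CPM being counts relative to the library total after scaling by the trimmed mean of M-values, TMM) in the wildtype and 152 ± 10.9 CPM in the mutant libraries, which is opposite to a loss of 1 copy (log2 fold change 0.89, adjusted p = 0.0313, edgeR). The direction held in all 19 alternative fits (0.69 to 0.99) and the call in 12 of them, with adjusted p-values of 0.00626 to 0.339 when 1 library was left out. *Nos3* was 42.4 ± 9.18 and 21.5 ± 0.949 CPM (log2 fold change -0.98, adjusted p = 0.128, edgeR), lower but not called in this fit. *Nos3* still had 884, 824 and 769 reads in mutant replicates 1, 2 and 3, although these were labelled null for it. It was lower in all 19 alternative fits and called in 6 of them, among them DESeq2's Wald test (adjusted p = 9.42e-06) and the fit without wildtype replicate 1 (-1.15, adjusted p = 0.00176, edgeR). The libraries are therefore named by their labels throughout. Myocardial, endothelial, smooth muscle and mesenchymal markers were present, although the smooth muscle genes *Tagln* and *Myh11* were low at 2.49 and 1.94 CPM in wildtype libraries. Of the epithelial list, *Epcam*, *Cdh1* and *Cldn6* were near 0. *Krt18* of that list was at 24.2 CPM in wildtype and 18.7 CPM in mutant libraries. Wildtype replicate 1 was nearer to each mutant library than to either wildtype library (chi-square per degree of freedom of 16.4 to 37.1 against 52.5 and 65.6), so the members' fold changes are also given without it.

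The promoter windows of *Epha3* and *Epha7* are shown because these genes had the largest fold changes of the members, and because 1 holds and 1 lacks the motif TGGGAA, the core of the site bound by the Notch partner Rbpj. The windows are RefSeq's, on GRCm38.p6, from 250 bases before to 50 after a gene's start, and TGGGAA on either strand is in capitals.

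Epha3, chr16:63864126-63864425, minus strand: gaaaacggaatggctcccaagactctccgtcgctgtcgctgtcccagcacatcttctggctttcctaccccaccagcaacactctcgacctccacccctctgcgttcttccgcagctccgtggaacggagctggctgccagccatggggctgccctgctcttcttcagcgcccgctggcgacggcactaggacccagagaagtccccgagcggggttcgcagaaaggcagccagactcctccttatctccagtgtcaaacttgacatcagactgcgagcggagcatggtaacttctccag

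Epha7, chr4:28812881-28813180, plus strand: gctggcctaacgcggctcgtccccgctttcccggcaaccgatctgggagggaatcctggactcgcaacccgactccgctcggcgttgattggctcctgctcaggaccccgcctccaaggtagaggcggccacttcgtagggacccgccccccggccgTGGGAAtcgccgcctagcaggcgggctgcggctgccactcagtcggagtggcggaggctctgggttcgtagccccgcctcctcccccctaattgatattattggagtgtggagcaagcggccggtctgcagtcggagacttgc

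All 9 members had a window, 11 windows in all, of which some overlap. TGGGAA was found in those of 2 of the 9 members (22.2%), *Epha4* at position -200 and *Epha7* at position -93 from the start, while 28.3% of all genes and 25.6% of all 32851 windows held it. A match is a run of letters and not a binding site, and the absence of a match concerns these 300 bases only. The members shared a high GC content, 60.7 to 73.3% in their windows where the median of all windows was 52.7%, and held 14 to 38 CpG dinucleotides where the median was 7.

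Levels were compared between genes per length, as FPKM (CPM per kilobase of merged exons). *Ephb4* was highest at 29.5 ± 0.361 FPKM (SD, n = 3) in wildtype and 32.2 ± 1.47 in mutant libraries, and *Ephb2* lowest at 1.20 ± 0.203 and 1.47 ± 0.288. Between them, by the mean of all 6 libraries, came *Efna1* at 16.9 FPKM, *Epha7* at 12.5, *Efnb2* at 10.8, *Efna5* at 7.05, *Ephb3* at 5.88, *Epha3* at 2.76 and *Epha4* at 2.19. The order was the same in both groups of libraries. Of the 8 neighbouring pairs in it, 4 did not overlap over the 6 libraries, those of *Ephb4* above *Efna1*, *Efnb2* above *Efna5*, *Ephb3* above *Epha3* and *Epha4* above *Ephb2*. The other 4 pairs overlapped, and *Efna1* and *Epha7*, for instance, kept their order in 5 of 6 libraries and *Epha7* and *Efnb2* in 4 of 6. Without the division by length, 4 of 9 members kept their rank.

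**Figure D1:**
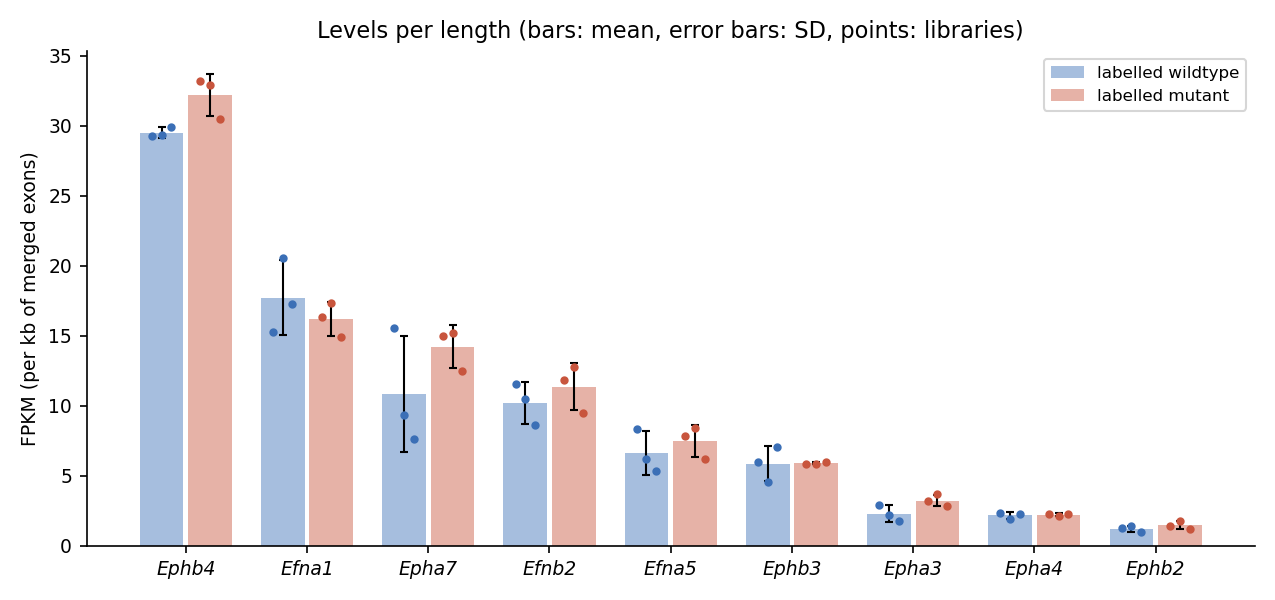
Level of each member per length (FPKM, axis from 0), with bars for the mean of the 3 libraries of a label, error bars for the SD and points for libraries, the members ordered by their mean. *Ephb4* lies above all others in every library, *Ephb2* lies lowest, and the points of *Efna1*, *Epha7* and *Efnb2* run into each other.

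Within the receptor family *Ephb4* alone made up 48.5 ± 4.52% (SD, n = 3) of the summed FPKM of 14 Eph receptor genes in wildtype and 45.5 ± 1.49% in mutant libraries. *Epha7* made up 17.5 ± 5.09% and 20.01 ± 0.669%. The 6 receptors examined held 84.9 ± 2.55% and 83.6 ± 1.53% of the receptor sum, whereas the 3 ligands held 36.5 ± 3.90% and 39.8 ± 2.29% of the sum of 8 ephrin genes. *Efnb2* relative to *Ephb4*, the arterial ligand and its venous receptor, was 0.396, 0.356 and 0.288 FPKM per FPKM in wildtype replicates 1, 2 and 3 and 0.357, 0.388 and 0.311 in mutant replicates 1, 2 and 3. The ratio was 0.347 ± 0.0548 and 0.352 ± 0.0389, a difference smaller than the spread within either group.

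The ligands differed little between the labels. *Efna1* (mm10 chr3:89271733-89281142), an ephrin-A ligand of blood vessels, was at 28.0, 37.7 and 31.6 CPM in the wildtype and 29.8, 31.7 and 27.3 CPM in the mutant libraries (replicates 1, 2 and 3, also in what follows). It was the only member with an estimate below 0, a log2 fold change of -0.13 ± 0.12 (SE; 95% interval -0.40 to 0.14; adjusted p = 0.636, edgeR). The highest value was in wildtype replicate 2, and the groups overlapped.

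*Efna5* (chr17:62604184-62881317), an ephrin-A best known from axon guidance, was at 33.7, 25.0 and 21.4 CPM in the wildtype and 31.6, 33.9 and 25.0 CPM in the mutant libraries. *Efnb2* (chr8:8617434-8661242) was at 79.4, 71.7 and 59.0 CPM and at 81.2, 87.5 and 64.9 CPM. For both, wildtype replicate 1 stood highest of its group and mutant replicate 3 lowest of its own, and the groups overlapped. Their log2 fold changes were 0.17 ± 0.17 (SE; 95% interval -0.20 to 0.55; adjusted p = 0.648, edgeR) and 0.15 ± 0.14 (SE; -0.15 to 0.46; adjusted p = 0.621, edgeR).

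**Figure D2:**
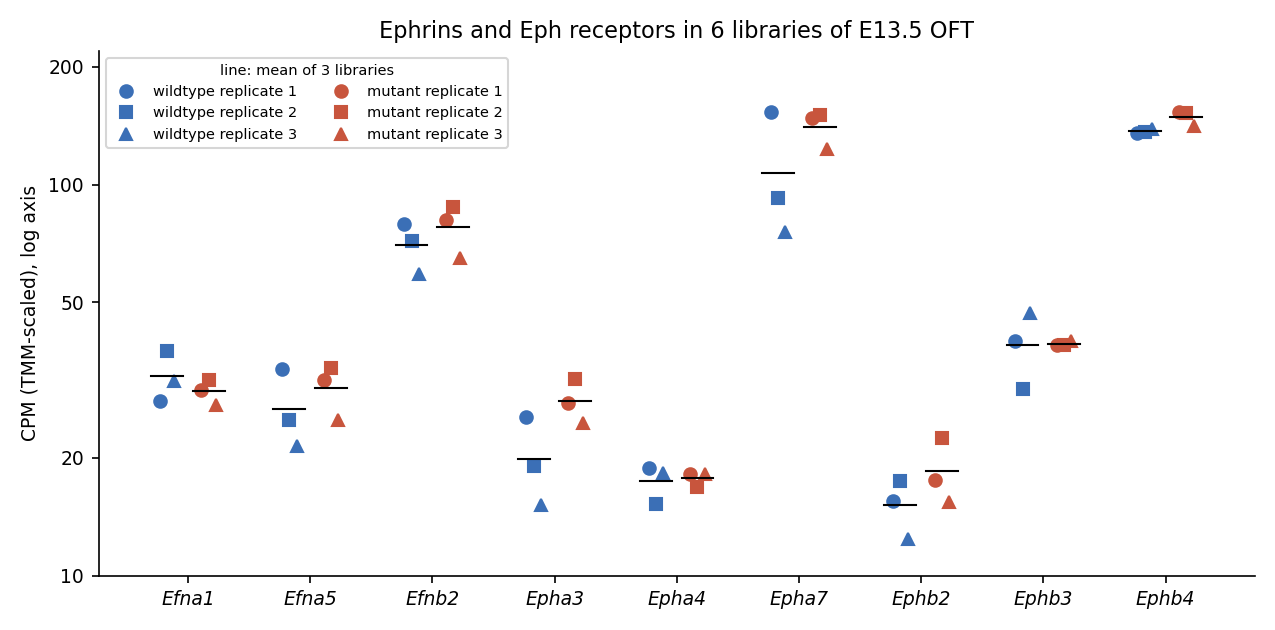
CPM of each of the 9 members in the 6 libraries on a logarithmic axis, with a symbol for each library, blue for wildtype and red for mutant labels, and a line for each group's mean. The groups are apart for *Ephb4* only, and wildtype replicate 1 lies among the mutant libraries for *Epha3* and above them for *Epha7*.

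Of the EphA receptors, *Epha3* (chr16:63543534-63864175) was at 25.5, 19.1 and 15.2 CPM in the wildtype and 27.7, 31.8 and 24.6 CPM in the mutant libraries. Wildtype replicate 1 exceeded mutant replicate 3, and 8 of the 9 pairs of a mutant and a wildtype library had the mutant one higher. The fold was 1.41 (95% interval 1.08 to 1.84), with an unadjusted p of 0.0170, an adjusted p of 0.238 (edgeR) and p = 0.2 in a two-sided exact permutation test. It was the only member with an unadjusted p under 0.05, a bound that 8.23% of all genes tested passed as higher and 7.83% as lower. With 3 libraries against 3 the exact test cannot go below 0.1.

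*Epha7* (chr4:28813131-28967499), a receptor known from the developing brain, was at 154, 92.5 and 75.6 CPM in the wildtype and 148, 150 and 123 CPM in the mutant libraries. The highest of the 6 was wildtype replicate 1, while the other two wildtype libraries lay below all mutant ones. The fold was 1.31 (95% interval 0.942 to 1.82), with an adjusted p of 0.395 (edgeR) and an exact permutation p of 0.4. Over the 6 libraries the highest value of *Epha7* was 2.03 times the lowest, and that of *Epha3* 2.1 times.

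*Epha4* (chr1:77367185-77515088), which binds both classes of ephrin, was nearly level at 18.9, 15.3 and 18.3 CPM in the wildtype and 18.2, 16.8 and 18.2 CPM in the mutant libraries. Its log2 fold change was 0.02 ± 0.12 (SE; 95% interval -0.24 to 0.28; adjusted p = 0.949, edgeR), and its highest value was 1.24 times its lowest.

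Of the EphB receptors, *Ephb4* (chr5:137350109-137378669) was at 136, 136 and 139 CPM in the wildtype and 154, 153 and 141 CPM in the mutant libraries. Every mutant library was above every wildtype library, by little in mutant replicate 3. Groups that did not overlap, with the mutant higher, were found for 1 of the 9 members and for 10.7% of all genes tested. The fold was 1.09 (95% interval 0.951 to 1.25), not called (adjusted p = 0.515, edgeR), with the smallest exact permutation p that this design allows, 0.1. With correction for GC content and length its log2 fold change was -0.0390 in place of 0.13. *Ephb4* was the steadiest member, its highest value being 1.13 times its lowest. *Ephb4* lies on chromosome 5, as does *Nos3*, but far from it (*Nos3* at chr5:24364810-24384474). Of the exons of *Ephb4*, 33 bases (0.711% of their length) are shared with *Zan* on the opposite strand, while no other member shares exonic bases with another gene. Markers of the vessels in which *Efnb2* and *Ephb4* are known were summed. The sum of 4 venous endothelial markers was 112 to 117 CPM in wildtype and 125 to 151 CPM in mutant libraries. Of their estimates 4 of 4 were above 0 and 0 were called. The largest part was *Nrp2*, whose groups did not overlap, while those of *Nr2f2*, *Aplnr* and *Flt4* overlapped. The sum of 6 arterial markers was 407 to 440 and 496 to 536 CPM, with 4 of 6 estimates above 0, but most of it was *Unc5b*, and without this gene it was 122 to 183 and 134 to 143 CPM, which overlap. The arterial genes *Gja5* and *Dll4* had estimates of -0.82 and -0.10. The part of these markers in the values of *Ephb4* and *Efnb2* was not tested.

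*Ephb2* (chr4:136647539-136835988) and *Ephb3* (chr16:21204755-21223305) are receptors for ephrin-B ligands that act together in vessels and epithelia. *Ephb2* was at 15.5, 17.5 and 12.4 CPM in the wildtype and 17.6, 22.5 and 15.4 CPM in the mutant libraries, a log2 fold change of 0.29 ± 0.17 (SE; 95% interval -0.08 to 0.65; adjusted p = 0.414, edgeR). *Ephb3* was at 39.9, 30.1 and 46.9 CPM in the wildtype and 38.9, 38.9 and 39.8 CPM in the mutant libraries, a log2 fold change of 0.01 ± 0.14 (SE; -0.30 to 0.33; adjusted p = 0.984, edgeR). The groups overlapped for both, and the 3 mutant values of *Ephb3* lay within the range of the wildtype ones.

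Of the 9 log2 fold changes 8 were above 0 and 1 below, with a median of 0.15, where 51.2% of all genes tested were above 0 with a median of 0.01. These 9 estimates come from the same 6 libraries and are not independent of each other. The direction was not kept in every fit. It turned below 0 for *Epha4*, *Ephb3* and *Ephb4* with the correction for GC content and length, for *Efna5*, *Efnb2*, *Epha4* and *Epha7* with mesenchymal markers as a covariate, and for *Efna5*, *Efnb2* and *Ephb2* with myocardial markers.

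**Figure D3:**
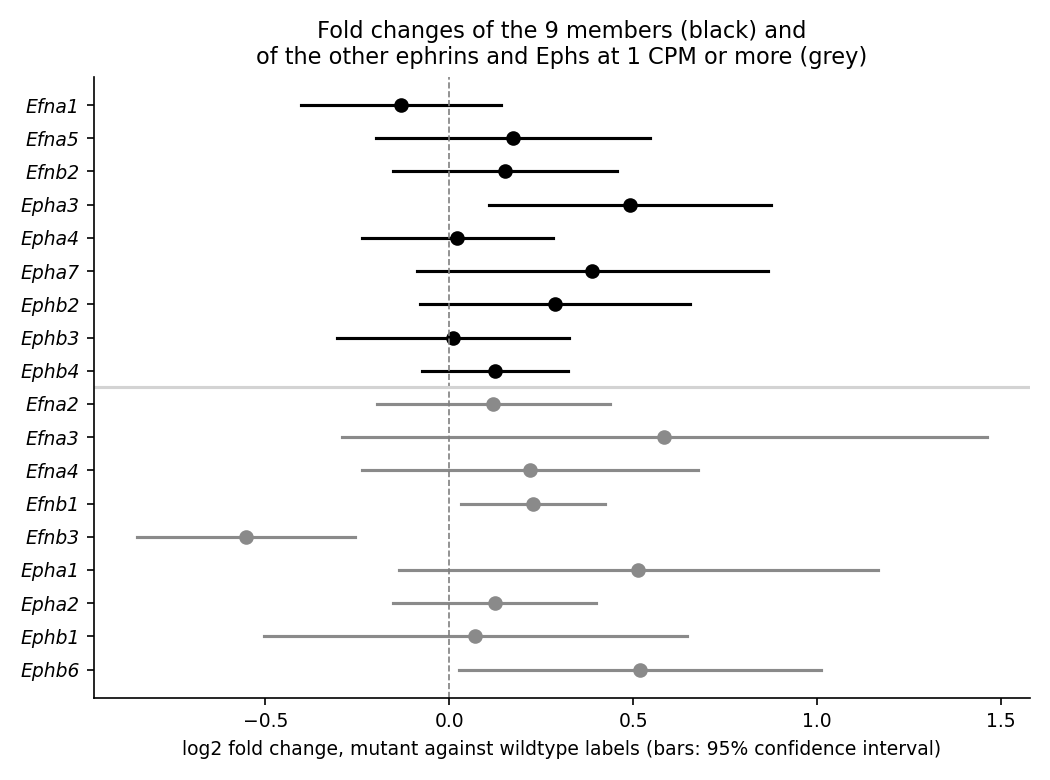
Log2 fold change of the 9 members (black) and of the 9 other ephrins and Ephs of at least 1 CPM (grey), libraries labelled mutant against wildtype, from edgeR's fit of all genes, with bars for the 95% interval. The interval of *Epha3* (0.11 to 0.88) lies above 0 before adjustment for multiple tests, those of the other 8 members include 0, and *Efnb3* at -0.55 is the only gene drawn other than *Efna1* with an estimate below 0.

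Without wildtype replicate 1, *Epha3* and *Epha7* were called higher under the mutant label, with log2 fold changes of 0.71 (adjusted p = 0.0241, edgeR) and 0.74 (adjusted p = 0.0184, edgeR). In that fit 9.45% of all genes were called, 4.15% as higher, so the 2 of 9 members stand beside a background that also grew. The groups then did not overlap, with the mutant higher, for *Efna5*, *Epha3*, *Epha7* and *Ephb4*, 4 of 9 members against 22.5% of all genes. *Efna1* was then at -0.23, *Efna5* at 0.38 and *Efnb2* at 0.25, none of them called (adjusted p = 0.220, 0.119 and 0.272, edgeR), while *Epha4*, *Ephb2*, *Ephb3* and *Ephb4* were at 0.0817, 0.31, 0.0286 and 0.12. Without wildtype replicate 3, in contrast, *Epha7* was at 0.19 (adjusted p = 0.747, edgeR), *Epha3* at 0.33 (adjusted p = 0.512, edgeR), *Efna5* at 0.0395, *Efnb2* at 0.0437 and *Ephb2* at 0.16. Leaving out any library other than wildtype replicate 1 called 0 of 9 members. No label gives a ground for leaving this library out.

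Within each label, *Epha3* and *Epha7* ranked the libraries as the sum of the mesenchymal markers did. Over all 6 libraries *Epha7* was highest in wildtype replicate 1, where this sum was below that of mutant replicates 1 and 2. *Efna5* and *Efnb2* also ranked the libraries within each label as these markers' sum did, over smaller ranges. So did *Epha1* and *Efna3* of the rest of the family, over ranges of 3.01 and 3.62 times. The share of all genes with this order was not determined. The summed level of 6 mesenchymal markers (*Sox9*, *Postn*, *Col1a1*, *Col3a1*, *Twist1* and *Vcan*) was 7653, 5208 and 3965 CPM in the wildtype and 8352, 9119 and 7141 CPM in the mutant libraries, so wildtype replicate 1 lay within the mutant range here too. All 6 markers had estimates above 0, with a median log2 fold change of 0.58, 5 of them had an unadjusted p under 0.05, and 0 were called (edgeR). The 8 myocardial markers had estimates below 0 (median -0.49), and their sum was 18182 to 25571 CPM in wildtype and 13159 to 17570 CPM in mutant libraries. Neural genes, in which several Ephs are known, were low, with sums of 11.1 to 22.1 and 25.5 to 33.5 CPM for 5 neuronal markers and 21.9 to 35.9 and 30.8 to 39.8 CPM for 4 markers of neural crest and glia, all with estimates above 0, and *Sox10* was at 0.535 and 0.966 CPM.

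Per 1000 CPM of the mesenchymal sum, *Epha3* was at 3.33, 3.66 and 3.82 CPM in the wildtype and 3.31, 3.49 and 3.45 CPM in the mutant libraries, a range of 1.15 times from lowest to highest. *Epha7* was at 20.1, 17.8 and 19.1 CPM and at 17.7, 16.5 and 17.2 CPM, a range of 1.217 times. Before this division both ranges were over 2, as given above. For the other 7 members the range after division was 1.54 to 2.77 times, and for *Ephb4* it was 2.09 times where it had been 1.13. The mesenchymal sum itself ran from 3965 to 9119 CPM, so a nearly level gene had to spread when divided by it. The contrast with the other 7 members therefore follows in part from the ranges before division. The ratio to the mesenchymal sum was computed after the values of the members had been seen, and it is a description.

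**Figure D4:**
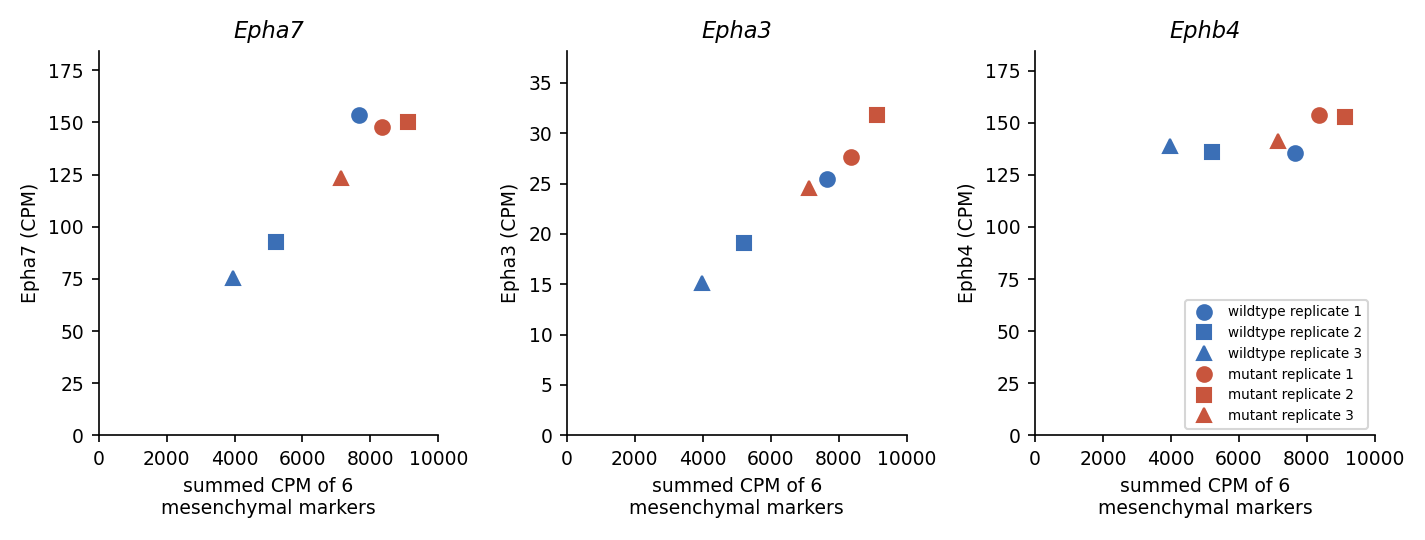
CPM of *Epha7*, *Epha3* and *Ephb4* in the 6 libraries against the summed CPM of 6 mesenchymal markers, with axes from 0 and colours for labels. *Epha7* and *Epha3* are lowest in wildtype replicates 3 and 2, where the sum is lowest, while *Ephb4* stays between 136 and 154 CPM.

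With the mean of the mesenchymal list as a covariate, the log2 fold change of *Epha3* was 0.03 (adjusted p = 0.971, edgeR) and that of *Epha7* -0.21 (adjusted p = 0.672, edgeR). With the myocardial list they were 0.19 and 0.07 (adjusted p = 0.866 and 0.968, edgeR). With the endothelial list, whose sum was 927 to 1230 CPM in wildtype and 1015 to 1110 CPM in mutant libraries, they were 0.47 (adjusted p = 0.0188, edgeR) and 0.39 (adjusted p = 0.0164, edgeR), and both were called, in a fit that called 5.89% of all genes tested. Over all genes, 4522 had an unadjusted p under 0.05 without a covariate (edgeR). The number was 2120 with the mesenchymal, 1941 with the myocardial and 6384 with the endothelial list. The mesenchymal mean itself differed with the label, at log2 levels of 9.02, 8.35 and 7.96 in wildtype and 9.23, 9.23 and 8.92 in mutant libraries. A fit with this covariate therefore cannot fully separate label from list. In bulk tissue, fewer cells of a type and less RNA per cell cannot be told apart, and the part of the tissue's make-up in these differences was not tested.

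**Figure D5:**
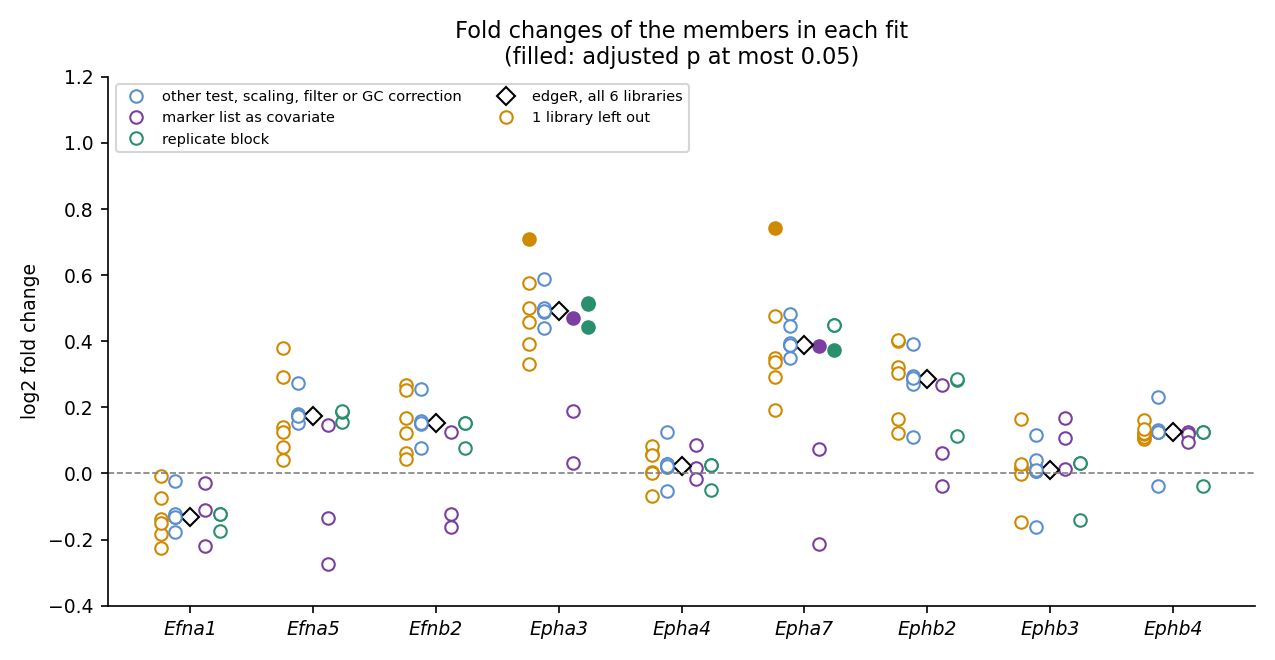
Log2 fold change of each member in the fit of all 6 libraries (diamonds) and in every alternative fit (circles, coloured by kind), filled where the adjusted p was at most 0.05. *Epha3* stays above 0 in all fits and ranges from 0.03 to 0.71, *Epha7* ranges from -0.21 to 0.74, and the other 7 members are called in none.

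The rest of the family comprised 13 genes, of which 9 reached 1 CPM. None was called by edgeR (0 of 13; 3 had an unadjusted p under 0.05), and DESeq2's Wald test, which called 2.64% of all genes, called 1 of these 13 and 0 of the 9 members. That gene was *Efnb3*, a transmembrane ligand, at 96.5, 106 and 139 CPM in the wildtype and 77.5, 72.3 and 82.6 CPM in the mutant libraries. Every mutant library was below every wildtype library, as for 8.94% of all genes, and the log2 fold change was -0.55 ± 0.13 (SE; adjusted p = 0.181 by edgeR and 0.0157 by DESeq2). With mesenchymal markers as a covariate it was -0.22 (adjusted p = 0.688, edgeR). The third ephrin-B, *Efnb1*, was at 39.0, 39.5 and 41.6 CPM in the wildtype and 47.6, 47.6 and 45.4 CPM in the mutant libraries, apart in the other direction (log2 fold change 0.23, adjusted p = 0.262, edgeR). The kinase-inactive receptor *Ephb6* was the other gene with an unadjusted p under 0.05 (log2 fold change 0.52, adjusted p = 0.293, edgeR). *Efna2*, *Efna3*, *Efna4*, *Epha1*, *Epha2* and *Ephb1* had estimates of 0.12, 0.59, 0.22, 0.51, 0.12 and 0.07 and adjusted p-values of 0.409 or more (edgeR), and *Epha5*, *Epha6*, *Epha8* and *Epha10* were below 1 CPM.

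Genes that act with ephrins and Ephs were taken from a list of 43, namely 25 partners of forward signaling, 10 of reverse signaling and 8 proteases or phosphatases that cut or silence the pair. None was called by edgeR (0 of 43), and 11 had an unadjusted p under 0.05, 9 higher and 2 lower, beside 8.23% and 7.83% of all genes. DESeq2 called 2, *Stat3* and *Arhgef19*. Of the 43 genes, 10 had all mutant libraries above and 1 all below the wildtype libraries, beside 10.7% and 8.94% of all genes. *Stat3*, which can relay ephrin-B signals, was 80.2 ± 7.62 CPM (SD) in wildtype and 106 ± 5.99 in mutant libraries (log2 fold change 0.40, adjusted p = 0.190, edgeR). *Arhgef19*, a partner of forward signaling, was 6.62 ± 2.07 and 12.4 ± 3.32 CPM (log2 fold change 0.90, adjusted p = 0.194, edgeR). Next by p came *Ptpn13* (log2 fold change 0.33), a phosphatase that binds ephrin-B tails, *Sipa1l1* (0.31), a Rap regulator, and the matrix protease *Mmp2* (0.46), with adjusted p-values of 0.235 to 0.240 (edgeR). With mesenchymal markers as a covariate the estimates were 0.31 for *Stat3*, 0.25 for *Arhgef19*, 0.0868 for *Ptpn13*, 0.15 for *Sipa1l1* and 0.0316 for *Mmp2*. The median log2 fold change of the 43 genes was 0.08.

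The genes most like each member in their pattern over the 6 libraries were found among 13088 genes of at least 5 CPM, by the root mean square difference of log2 CPM after centring each gene. For *Epha7* they were *Gem*, a small GTPase, and *Adam19*, a metalloprotease (0.0407 and 0.0443), and for *Epha3* they were *Dse*, an enzyme of dermatan sulfate synthesis, and *Gm43305* (0.0312 for *Dse*). *Efnb2* was most like *Nudt18* and *Cnpy4*, *Efna1* most like *Spint2* and *Gm9449*, and *Efna5* most like *Plag1* and *Mir17hg*. *Epha4* was most like *Clec16a* and *Pik3r1*, *Ephb2* most like *Cd55* and *Map6*, *Ephb3* most like *Kdm1b* and *Gm10033*, and *Ephb4* most like *Map3k3* and *Ccdc136*. How common a pattern was differed widely, with 2041 genes within 0.1 of *Ephb4* and 1388 of *Epha4*, both nearly level, but 90 of *Epha3*, 44 of *Epha7*, 33 of *Ephb2* and 20 of *Ephb3*. No member was among the 2 nearest genes of another.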

How the data were processed

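After depletion of ribosomal RNA, the authors made stranded libraries from total RNA, aligned paired-end reads to mm10 with TopHat2 2.1.0 and counted reads on exons with GenomicAlignments. The deposited values are raw counts per gene. The annotation release, the strand setting and the treatment of overlapping genes are not given in the sources used here.

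Genes with more than 5 reads over the 6 libraries were scaled by TMM and tested with edgeR 4.0.16 (quasi-likelihood, Benjamini-Hochberg adjustment, adjusted p of at most 0.05) in R 4.3.3. Exact permutation tests (scipy 1.17.1) used log2 of CPM plus 0.5. Exon lengths and positions came from GENCODE on GRCm38, which holds 28723 of the 28777 identifiers. The code was tested on simulated data whose changes were larger than any member's, so the power to detect the members' changes was not measured.

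The alternatives were DESeq2 1.42.0, limma 3.58.1 (voom), other scaling and filters, a replicate block, a correction for GC content and length, marker lists as covariates, an adjusted p of at most 0.01 and each library left out. Named were all 9 members, *Notch1*, *Nos3*, other ephrins and Ephs of at least 1 CPM, 5 partners by smallest p, and 2 genes most like each member. Members and lists were chosen with earlier results of these data known. Nothing in the labels says that the pools came from separate litters, so p-values measure the spread between these pools. For wildtype replicates 2 and 3, titles and descriptions give opposite library numbers, so their numbers, though not their group, are uncertain. Other marker lists are given as sums, in CPM over wildtype and mutant libraries: smooth muscle 1585 to 2084 and 1384 to 1622, epicardial 169.9 to 285 and 170.8 to 236, blood 1986 to 4683 and 2384 to 2486, macrophage 71.6 to 108 and 74.1 to 92.9, epithelial 20.2 to 27.9 and 17.7 to 20.5. Members of a list could differ in direction, with 2 of the 5 smooth muscle estimates above 0 and 3 below. Nearly all of the epithelial sum was *Krt18*.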

Additional observations from a re-analysis of the deposited data

How the results depend on the processing

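Of the 180 comparisons of a member's fold change with an alternative (9 members, 20 alternatives), 157 kept direction and side of the threshold, 7 came past it and 16 changed direction. The number of members called was 0 by DESeq2 and limma-voom, by other scaling or filters, and with the myocardial or mesenchymal list as a covariate (5 and 15 genes called in all). It was 2 with the endothelial covariate, which called 1659 genes in all (5.89%), and 0 to 2 with 1 library left out. *Efnb3* was the 1 gene called of the other ephrins and Ephs by DESeq2 and with the endothelial covariate (0 to 1 with 1 library left out), and of the partners 2 were called by DESeq2, 6 with the endothelial covariate and 0 to 8 with 1 library left out. The calls with 1 library left out were made without wildtype replicate 1 only, when *Efnb3* was at -0.66 (adjusted p = 0.0208, edgeR). Library size alone moved the median of all genes to 0.11.

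Deviations of libraries sharing a title number correlated at 0.0209, 0.0418 and 0.123 over all genes and at 0.0960, 0.159 and 0.420 over genes of at least 1 CPM, where the description numbers gave -0.441 and -0.121 for the exchanged pairs. In both sets 4 of 6 libraries correlated best with their own number and 1 pair or more was at 0.1 or below, so the labels and this check do not establish a pairing. The replicate block by title numbers called 1577 genes, 5.60% of all tested. Among them were 1 of 9 members (*Epha3*, 0.52, adjusted p = 0.0204, edgeR), 3 of 13 other ephrins and Ephs and 4 of 43 partners. With the numbers of the descriptions the replicate block called 83 genes (0.295%) and 0 members. GC and length correction with the replicate block called 2624 genes, 9.32% of all tested. Among them were 2 of 9 members, 1 of 13 other ephrins and Ephs and 4 of 43 partners.

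Estimates that changed direction were, with GC and length correction, *Epha4* -0.0525, *Ephb3* -0.16, *Ephb4* -0.0390, *Efna2* -0.00608, *Epha2* -0.0192 and *Ephb1* -0.0386. With the block added they were -0.0496, -0.14, -0.0386, -0.00843, -0.0152 and -0.00652. With the myocardial covariate they were *Efna5* -0.14, *Efnb2* -0.12, *Ephb2* -0.0368, *Efna2* -0.0953, *Efna4* -0.18, *Epha1* -0.13 and *Ephb1* -0.17. With the mesenchymal covariate they were *Efna5* -0.27, *Efnb2* -0.16, *Epha4* -0.0181, *Epha7* -0.21, *Efna2* -0.0244, *Efna3* -0.29, *Efna4* -0.29 and *Epha1* -0.30. With 1 library left out, *Epha4* ranged from -0.0676 to 0.0817, *Ephb3* from -0.15 to 0.16 and *Ephb1* from -0.0918 to 0.40. The cause was not tested. The order of levels kept 4 of 9 ranks in CPM, 7 with the longest transcript and 9 with library size only. *Epha6*, *Epha8* and *Epha10* were near the floor of 3 counts per library, so a difference in them was not detectable at this depth.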
